A study of Mus musculus with 7 samples.

Results

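Alternative exon ends are pairs or sets of exons of one gene that share one boundary and differ at the other, so that the same exon is made in a longer and a shorter form. The deposited files list such exons under 2 event codes, AE and XAE, and all distinct events of either code were taken. There were 16183 of them among 126309 distinct events of all kinds (12.8%), with between 11885 and 12106 listed in a library. They came to 14731 distinct exons, of which 1452 stood under both codes with the same value and were counted once. Of these exons, 12450 (84.5%) shared a boundary with another exon of the same gene and formed 6179 groups in 3965 genes, 695 of them in 2 groups, and 2281 exons had no partner. A total of 3435 groups in 2308 genes, made of 7063 exons, held at least 5 FPKM (fragments per transcript length and library size) in every library and were described further. The other 2744 groups were left out as too low, which leaves 5387 exons that are in no group described here.

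The study exposed cultured mouse neural cells to insecticides and sequenced their RNA. Wild-type B6G-2 embryonic stem cells were grown as embryoid bodies for 6 days and then as neural progenitors with bFGF and EGF, and at day 14 they were put into medium for differentiation and kept for 1 day with chlorpyrifos, DDT, rotenone, carbaryl, deltamethrin or imidacloprid, or left as control. All 7 cultures therefore share the cell line, the genotype, the medium and the day, and the labels give no dose and no vehicle. Each group is 1 library, so the differences below could not be checked on replicates and carry no p-value, and FPKM values carry no read counts from which a counting error could be set.

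At the 5′ end of an intron the splicing machinery reads a donor site that begins with GT, and at its 3′ end an acceptor site that ends with AG behind a tract of pyrimidines. Where a second site lies nearby, the exon can end at either one, and the stretch between the sites is kept as exon in the longer form and removed as intron in the shorter. In coding sequence a stretch that is a multiple of 3 adds or removes whole codons, and any other length shifts the reading frame.

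The bases that set the longer form apart show these signals directly. The stretches below are from GENCODE M21 transcripts on GRCm38, written 5′ to 3′ on the gene's strand, with the exon bases that both forms share in lower case and the bases found only in the longer form in capitals. A donor choice opens with the inner GT in the first capitals, and an acceptor choice closes with the inner AG in the last. The first set is of donor groups in coding sequence in which both ends were in use or whose forms are known isoforms; only the first bases of the long Crk stretch are shown.

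Crk donor (chr11:75692554-75692583, plus strand): tgattggagGTAACCAGGAGGGTTCCCACC
Prmt3 donor (chr7:49780335-49780391, plus strand): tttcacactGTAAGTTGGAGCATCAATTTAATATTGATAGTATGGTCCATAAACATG
Smarcb1 donor (chr10:75916773-75916808, minus strand): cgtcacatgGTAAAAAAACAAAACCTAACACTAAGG
Neto2 donor (chr8:85663387-85663416, minus strand): accttggagGTATTTTAAATCCCATTCCAG
Hnrnpc donor (chr14:52081789-52081836, minus strand): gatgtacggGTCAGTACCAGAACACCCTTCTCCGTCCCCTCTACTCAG
Srsf7 donor (chr17:80204122-80204139, minus strand): aggatcgagGTATTTCCA

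The second set is of acceptor groups, among them choices of 3 bases, where the longer form carries 1 extra triplet. The Zcchc12 bases lie in an untranslated region (UTR) and the others in coding sequence.

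Cnot1 acceptor (chr8:95755100-95755111, minus strand): TAGgtggtcttg
Nolc1 acceptor (chr19:46078873-46078884, plus strand): CAGgtccaccaa
Cnbp acceptor (chr6:87845312-87845323, minus strand): AAGcctgctata
Zcchc12 acceptor (chrX:36196509-36196520, plus strand): TAGcagcccatc
Nkain1 acceptor (chr4:130534037-130534062, minus strand): GCCCCTCTGCCCCCCAGgaccgggac
Gtf3c5 acceptor (chr2:28567776-28567802, minus strand): CTCTTTTCTCCAACACAGgtaaggctg
Fam168b acceptor (chr1:34819761-34819790, minus strand): TTGTCTCTGTTTTCCCCACAGcaaggcacg
Stat3 acceptor (chr11:100889532-100889590, minus strand): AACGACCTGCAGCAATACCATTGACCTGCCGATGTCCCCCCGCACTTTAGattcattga

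The third set is of groups in which 1 or more libraries stood far from the others. Mef2a and Pus10 differ in a UTR, and the remaining stretches are coding.

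Tmem183a donor (chr1:134355560-134355580, minus strand): ttggaccagGTTGTACCGAAG
Mef2a donor (chr7:67349849-67349877, minus strand): gaatcaaacGTAAGAGTAATCGATATCTA
Herc1 donor (chr9:66461891-66461920, plus strand): atcccagagGTACTGGATTGGCCTACCTGG
Nelfcd acceptor (chr2:174423004-174423060, plus strand): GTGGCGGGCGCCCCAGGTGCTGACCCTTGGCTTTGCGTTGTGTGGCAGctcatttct
Picalm acceptor (chr7:90191141-90191164, plus strand): GCTTTGATGAACTAGgtggacttc
Kif3a acceptor (chr11:53593374-53593403, plus strand): GTAAAAAGAAAGTTTCCCCAGataagatgg
Pus10 acceptor (chr11:23667278-23667296, plus strand): TTTCTTCTAGtatgcttcc

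Across all groups the letters followed the same grammar. The extra bases of the longer form could be read for 3057 of the 3435 groups (89.0%). In donor groups they began with GT in 1109 of 1165 (95.2%) and with GC, the known lesser donor, in 36 (3.09%), beside GT at 5.83% of all other positions of the same stretches. In acceptor groups they ended with AG in 1880 of 1892 (99.4%), beside AG at 6.77% of all other positions. These letters are not used by the rule that chose the groups, although spliced alignment itself favours them.

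The inner site also read differently by which form led, that is, had the higher mean share over the 7 libraries. Among donor groups that begin with GT, the longer run GTNAG, read only on the gene's strand and at the first bases, stood at 306 of 611 sites (50.1%) where the shorter form led. Where the longer form led it stood at 130 of 490 (26.5%), and over all 1101 sites with enough bases at 436 (39.6%). Upstream of the inner acceptor, bases were read only in groups with at least 20 extra bases, so shorter choices are left out. There C or T made up a median of 76.5% of the 17 bases before the last 3 in 709 groups led by the shorter form. The median was 64.7% in 836 groups led by the longer form. So the inner sites of the leading shorter forms had GTNAG and pyrimidines more often than the inner sites of lesser shorter forms. These letters were not split by context. The longer form's median mean share was 95.1% in coding sequence, 4.41% in UTRs and 2.24% in noncoding exons, so the leading form and the context go together.

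Acceptor choices were more numerous than donor choices, 2086 against 1349 (60.7% acceptor). Most groups, 3063, had 2 forms, and 372 had 3 or more, up to 10. In 2498 groups (72.7%) both leading forms match an exon of the annotation. In 740 (21.5%) a leading form is also listed as the retained form of an intron. Such forms and their groups are called intron-spanning below. Which leading form was so listed, and whether the intron lies in the extra bases, was not checked. The differing bases lay in coding sequence in 1865 groups (54.3%), in a UTR in 771, in an exon of a noncoding transcript in 502 and outside annotated exons in 297.

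The 2 leading ends lay between 1 and 5447 bases apart, with a median of 63. Distances of 3 bases formed a local peak at the acceptor, with 48 acceptor groups and 3 donor groups among those kept. More acceptor groups lay 18 bases (50) and 21 bases (56) apart, and 9 donor groups lay 4 bases apart. Multiples of 3 stood above their neighbours along most of the range up to 60 bases. The counts also step up at 10 bases: over all 6179 groups, ends 9 bases apart were found in 12 groups and ends 10 bases apart in 60, and 188 groups lay within 9 bases, against 734 from 10 to 18 bases. What set that step was not tested, and short distances other than 3 may be counted incompletely here.

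**Figure D1:**
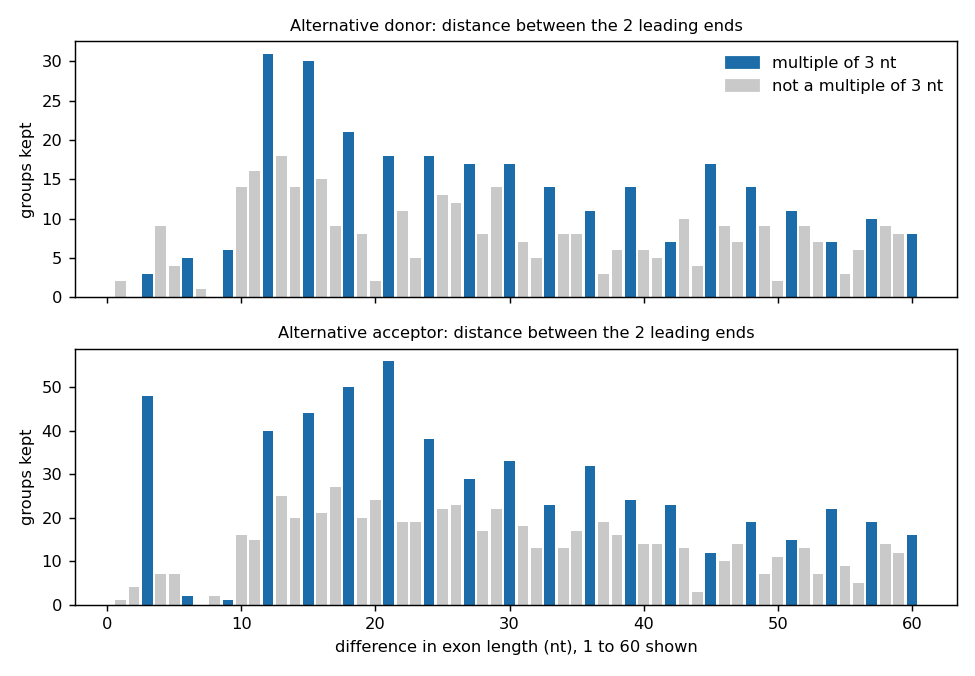
Number of groups kept (vertical axis) by the difference in exon length between the 2 leading forms in nucleotides (horizontal axis, 1 to 60), for donor groups above and acceptor groups below, with multiples of 3 in blue. The acceptor panel has a local peak at 3 nt with 48 groups, where the donor panel has 3. Its highest bar is at 21 nt with 56 groups, and both panels step up at 10 nt.

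The acceptor choices of 3 bases, of the kind known as NAGNAG sites, are the smallest change that keeps the reading frame. The extra triplet could be read for 45 of them and was CAG in 24, AAG in 11, TAG in 7 and GAG in 3. The outer triplet, which lies in the intron, was not read, so the full NAGNAG motif was not checked. The longer form led in 32 of the 45, with a median mean share of 63.8%. With GAG as the inner triplet the longer form led in 3 of 3 and its median mean share was 93.2%, with AAG in 10 of 11 and 78.3%, with TAG in 6 of 7 and 73.9%, and with CAG in 13 of 24 and 49.7%. The inner CAG was thus the triplet at which neither form led as a rule.

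The named acceptor groups of 3 bases ranged from near complete use of one site to changing use of both. Cnbp, a zinc finger protein that binds nucleic acids, used the shorter form nearly throughout, and the longer form held between 0.0163% and 2.06% of the group. Farsa, the catalytic subunit of phenylalanyl-tRNA synthetase, used the longer form at 89.8% to 100%. Zcchc12, a zinc knuckle protein, had its longer form at 83.0% with chlorpyrifos, 87.4% with DDT, 81.6% with rotenone, 64.7% with carbaryl, 76.6% with deltamethrin and 70.7% with imidacloprid, against 77.5% in control. Nolc1, a nucleolar phosphoprotein, had its longer form at 77.9% with chlorpyrifos, 38.8% with DDT, 83.3% with rotenone, 52.1% with carbaryl, 36.9% with deltamethrin and 43.4% with imidacloprid, against 37.4% in control. Chlorpyrifos and rotenone were thus the high libraries for Nolc1, and the other 5 lay between 36.9% and 52.1%. Fau, the precursor of a ribosomal protein, had 91.0% to 95.8% longer form in 5 insecticide libraries and 39.9% with DDT, against 93.7% in control. In Gatad2a, a subunit of the NuRD complex, the longer form ranged from 85% to 100%. Ywhaz, a 14-3-3 protein, ranged from a form that was not listed with imidacloprid to 69.7% with carbaryl. The Hap1 group, which lies outside annotated exons, listed the longer form with DDT alone, at 31.9%.

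Reading frame and use went together in coding sequence. Where the lesser of the 2 leading forms held under 5% on average, 505 of 1145 coding groups (44.1%) differed by a multiple of 3. Where it held 5% to 20% the count was 227 of 403 (56.3%), and where it held 20% or more it was 229 of 317 (72.2%). In UTRs the same 3 classes had 28.1%, 30.9% and 39.3% (42 of 107), and in noncoding exons 31.6%, 29.7% and 34.7%. Over all groups 42.5% differed by a multiple of 3. In coding sequence, ends that were both in regular use therefore mostly kept the frame, whereas outside it the multiple of 3 stayed nearer to 1 group in 3 in every class. The classes are set by the mean share and the frame by position alone, and groups of 1 gene are not independent of each other. The split by context comes from the annotation, and a stretch counted as coding only if it lay wholly inside annotated coding sequence. The longer form's median mean share also differed, at 95.1% in coding sequence, 4.41% in UTRs and 2.24% in noncoding exons. How far the split itself depends on the frame was not tested.

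**Figure D2:**
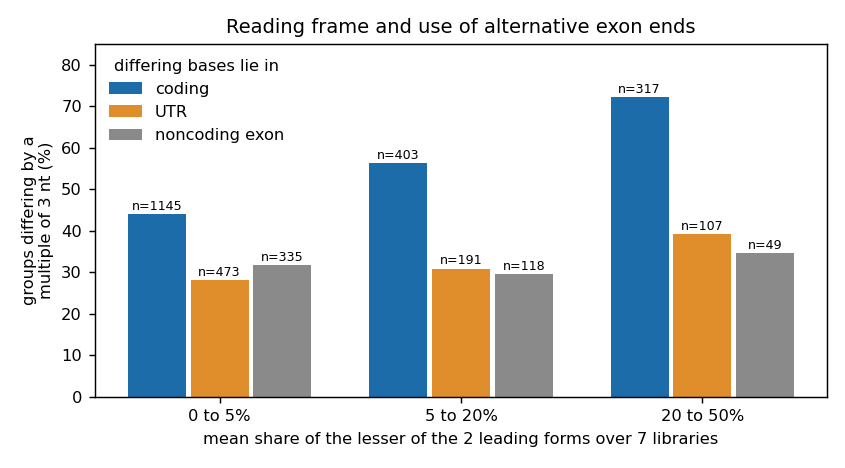
Percent of groups whose 2 leading forms differ by a multiple of 3 nt (vertical axis), by the mean share of the lesser leading form over the 7 libraries (horizontal axis), with bars for differing bases in coding sequence, in a UTR and in noncoding exons, and the number of groups above each bar. The coding bars are 44.1%, 56.3% and 72.2%, and the UTR and noncoding bars lie between 28.1% and 39.3%.

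Few groups used both ends evenly, and fewer did so steadily. The lesser leading form held at least 20% on average in 489 of 3435 groups (14.2%). Of these 489, the largest change between any pair of libraries was under 5 percentage points in 2 groups, under 10 in 13 and under 20 in 52. Here the change is the part of the group's FPKM that moves from one form to another, which for 2 forms is the difference in share. The largest change of a group had a median of 0.86 points where the lesser form held under 1% on average, 10.2 points at 1% to 5%, 25.1 points at 5% to 20% and 44.0 points at 20% or more. A form at a low mean share has little room to move, so a group's change is read beside its share.

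The 8 steadiest evenly used groups, found by a fixed rule among groups with a mean total of at least 10 FPKM, show what agreement between the 7 libraries looks like. Crk encodes an adaptor protein that links receptors to signalling through SH2 and SH3 domains, and its known short isoform, Crk-I, lacks the carboxy-terminal SH3 domain. The longer Crk exon had 33.2 FPKM with chlorpyrifos, 37.9 with DDT, 38.6 with rotenone, 39.8 with carbaryl, 34.4 with deltamethrin and 35.6 with imidacloprid, against 35.6 in control. The shorter one had 20.6, 21.8, 21, 20.5, 20.8 and 20.8 FPKM in the same insecticide libraries, against 21.9 in control. The longer form thus held 61.8% to 66.0% of Crk with insecticide, against 61.9% in control. The 2 ends are 170 bases apart and the second shifts the frame.

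Nkain1, which encodes a protein that interacts with the sodium pump, held its longer form at 45.3%, 46.4%, 45.3%, 43.5%, 46.1% and 48.8% with chlorpyrifos, DDT, rotenone, carbaryl, deltamethrin and imidacloprid, against 45.7% in control. Prmt3, an arginine methyltransferase, lay between 57.8% and 61.5% with insecticide, against 56.6% in control. Control was the lowest library for Prmt3, by less than 2 points. Smarcb1, a core subunit of the BAF chromatin remodelling complex, lay between 62.3% and 70.5%, against 69.7% in control. Cdc37, a kinase co-chaperone of Hsp90, lay between 44.3% and 53.7%, against 50.1% in control. Neto2, an auxiliary subunit of kainate receptors, lay between 39.2% and 48.8%, against 49.3% in control. Pcmt1, which repairs damaged aspartyl residues, lay between 33.7% and 42.7%, against 32.7% in control, and Mrps33, a mitochondrial ribosomal protein, between 44.8% and 55.0%, against 51.5% in control. The insecticide and control values overlapped for Crk, Nkain1, Smarcb1, Cdc37 and Mrps33, and in Prmt3, Neto2 and Pcmt1 control lay just outside.

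Against control, about 1 group in 9 had a change of at least 20 percentage points with each insecticide. The counts of 3435 groups were 383 with chlorpyrifos (11.1%), 371 with DDT (10.8%), 372 with rotenone (10.8%), 380 with carbaryl (11.1%), 383 with deltamethrin (11.1%) and 383 with imidacloprid (11.1%). These comparisons share the single control library. Pairs of insecticide libraries, which do not involve control, had a like number, between 340 and 395 groups over 15 pairs (9.90% to 11.5%), and their median was 372, while the 6 pairs with control had a median of 381.5. The median change of a group was 1.23 to 1.47 points in pairs with control and 1.17 to 1.47 points in pairs of insecticides. In counts, the pairs with control lay within the range of the pairs of insecticides.

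The groups past 20 points had no common direction. The longer form's share was higher in 190 and lower in 193 groups with chlorpyrifos, higher in 173 and lower in 197 with DDT, and higher in 169 and lower in 202 with rotenone. With carbaryl it was higher in 178 and lower in 202, with deltamethrin higher in 173 and lower in 209, and with imidacloprid higher in 193 and lower in 189. Donor groups passed more often than acceptor groups with rotenone (12.8% and 9.59%) and DDT (12.01% and 10.02%) and less often with carbaryl (10.4% and 11.5%), and these differences were not tested. The group's total FPKM was within 1.5-fold of control in 78.2% to 83.3% of the groups past 20 points and in 88.4% to 90.1% of the others, so most share changes came without a large change in the total.

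Skipped exons and retained introns, the most similar kinds of event, were scored at the same 20 points on the share of the included or retained form. They have 2 states, whereas an exon-end group can have more forms, and groups of 3 or more forms passed more often. In groups of 2 forms alone, 8.85% to 9.3% of exon ends passed against control, below the skipped exons that follow. Of 5434 skipped exons 9.97% passed with chlorpyrifos, 10.6% with DDT, 10.2% with rotenone, 10.3% with carbaryl, 10.6% with deltamethrin and 10.5% with imidacloprid. Of 1761 retained introns 7.55% passed with chlorpyrifos, 7.55% with DDT, 8.4% with rotenone, 7.55% with carbaryl, 6.81% with deltamethrin and 7.95% with imidacloprid. Between insecticides the medians were 10.8% for exon ends, 10.03% for skipped exons and 6.93% for retained introns. With exon-end groups of any number of forms, the medians kept the same order without control. Skipped exons still exceeded exon ends in chlorpyrifos against DDT (10.3% and 9.90%), chlorpyrifos against carbaryl (10.51% and 10.48%) and DDT against carbaryl (10.5% and 10.2%).

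**Figure D3:**
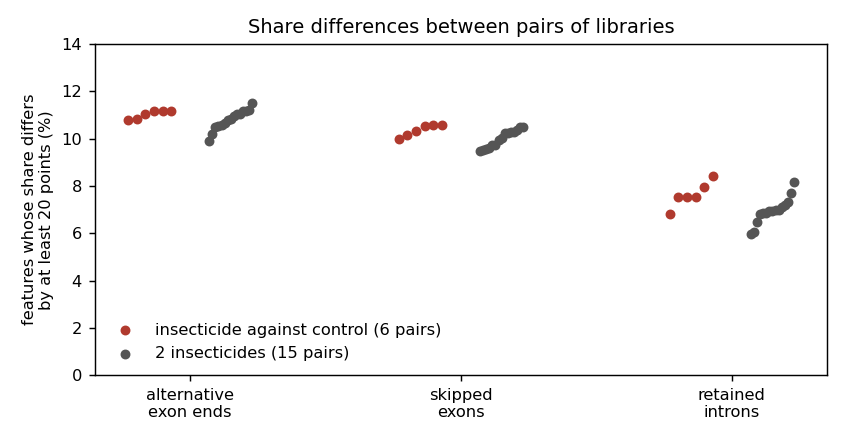
Percent of features whose share differs by at least 20 percentage points (vertical axis) between the libraries of a pair, for alternative exon ends, skipped exons and retained introns, with 1 point for each pair. For exon ends the 6 pairs of an insecticide with control (red) lie between 10.8% and 11.1%, inside the 9.90% to 11.5% of the 15 pairs of insecticides (grey).

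Over all 21 pairs, 1072 groups (31.2%) passed 20 points in some pair, and the largest change of a group had a median of 10.8 points. The share of groups past 20 points in some pair was 32.5% of donor and 30.3% of acceptor groups. It was 58.8% where the ends lay 1 to 9 bases apart, 33.6% at 10 to 30 bases and 27.4% beyond 300 bases. It fell along the group's mean total, with 37.4% at 5 to 10 FPKM, 31.1% at 10 to 20, 30.8% at 20 to 50, 24.4% at 50 to 100 and 17.9% above 100. Groups of 3 or more forms passed in 60.8%, against 27.6% of groups of 2 forms. By mean share the rate was 89.4% where the lesser leading form held 20% or more and 63.3% at 5% to 20%. Groups with ends 1 to 9 bases apart and groups of 3 or more forms also held more such evenly used groups, 33.3% and 28.8%, beside 14.2% of all groups. The part of each of these features in the changes of single groups was not tested.

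Each library in turn was then set against the other 6. The longer form's share lay at least 20 points outside the range of the other 6 in 47 groups for chlorpyrifos (1.37%), 53 for DDT (1.54%), 56 for rotenone (1.63%), 58 for carbaryl (1.69%), 47 for deltamethrin (1.37%) and 62 for imidacloprid (1.8%), against 48 for control (1.4%). The count for control lay inside the range of the insecticide libraries. At 50 points or more the counts were 5, 8, 6, 16, 6 and 9 for the same insecticides, against 7 for control. Above and below the others, imidacloprid had 35 and 27 groups and control 24 and 24.

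With chlorpyrifos, the groups with the largest change that also left the other 6 libraries were in Ewsr1, Cnot1, Fam168b and Taf15. Ewsr1 and Taf15 both encode RNA-binding proteins. The longer Taf15 form had 42.1 FPKM with chlorpyrifos and was not listed in the other 5 insecticide libraries or in control. There the shorter form had 21.2 to 30.8 FPKM with insecticide, against 24.1 in control. The Taf15 group is intron-spanning, although its extra bases number only 42. With chlorpyrifos the shorter Taf15 form had 8.60 FPKM and the longer one 83.1% of the group. In a donor group of Ewsr1, also intron-spanning, the longer form was not listed with chlorpyrifos. It had 19.0% with rotenone, 73.6% with deltamethrin and 99.9% to 100% with DDT, carbaryl and imidacloprid, against 99.9% in control. A second Ewsr1 group, at an acceptor, had 30.1% longer form with chlorpyrifos and 59.1% with rotenone, and 96.9% to 100% with the other 4 insecticides, against 100% in control. The shorter forms of both Ewsr1 groups carried equal values in every library, 78.1 FPKM with chlorpyrifos and 42.3 with rotenone among them, so the 2 groups are not separate measurements.

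Fam168b, which encodes an inhibitor of neurite outgrowth, fell into high and low libraries with nothing between. The longer form had 4.07% with chlorpyrifos, 88.3% with DDT, 6.25% with rotenone, 4.17% with carbaryl, 7.33% with deltamethrin and 88.6% with imidacloprid, against 89.1% in control. The forms changed places: the longer one had 62.6 FPKM with DDT, 60.1 with imidacloprid and 60.5 in control, where the shorter had 8.33, 7.71 and 7.42, while the shorter had 62.8 FPKM with chlorpyrifos. The Cnot1 acceptor group, in the scaffold of the CCR4-NOT deadenylase, likewise had 99.5% longer form with chlorpyrifos, 99.5% with DDT, 99.4% with rotenone, 17.6% with carbaryl, 60.3% with deltamethrin and 0.00565% with imidacloprid, against 0.00698% in control. Chlorpyrifos was outside the others there by only a small margin.

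With DDT they were in Nop58, Mef2a, Herc1 and Maf1. Nop58, a core protein of box C/D small nucleolar ribonucleoproteins, had 5.18%, 99.9%, 7.45%, 5.26%, 6.37% and 17.7% longer form with chlorpyrifos, DDT, rotenone, carbaryl, deltamethrin and imidacloprid, against 10.99% in control. Its shorter form had 0.00533 FPKM with DDT and 22.7 to 40.5 FPKM with the other insecticides, against 23.3 in control, and the longer form had 8.77 FPKM with DDT, against 2.88 in control. The DDT library thus differed both in the share and in the Nop58 total. Mef2a, a transcription factor of muscle and neurons, had 81.8% longer form with DDT and at most 4.88% with the other insecticides, and in control its longer form was at 9e-06 FPKM beside 12 for the shorter one. Maf1, the repressor of RNA polymerase III, had 6.02% longer form with DDT and 69.1% to 100% with the others, against 81.3% in control. Herc1, a very large ubiquitin ligase, had 98.5% with DDT and 23.1% to 84.5% with the others, against 19.2% in control.

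With rotenone they were in Ccnl2, Cuedc2, Pcyt2 and Sec24c. Pcyt2, an enzyme of phosphatidylethanolamine synthesis, had 4.30% longer form with rotenone and 100% with the other 5 insecticides, against 89.5% in control. The shorter Pcyt2 form had 21.2 FPKM with rotenone, against 2.11 in control, and was not listed elsewhere. Sec24c, a coat protein of vesicles that leave the endoplasmic reticulum, had 100% with rotenone, 80.9% with chlorpyrifos and 19.6% to 23.1% with the other 4, against 16.2% in control. Cuedc2, which binds ubiquitin, had 0.0788% with rotenone and 17.5% to 94.9% with the others, against 95.0% in control. Ccnl2, cyclin L2 of the nuclear speckles, is given further below with the groups where control stood apart.

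With carbaryl they were in Tmem183a, Lmf2 and Nelfcd. Kif3a was named with them, although its share with DDT was equal, so carbaryl did not leave the other libraries there. Tmem183a, a transmembrane protein, had a shorter form of 17.6 FPKM with carbaryl and 2.53 FPKM with rotenone, and that form was not listed in the other 4 insecticide libraries or in control. The longer Tmem183a form was not listed with carbaryl and had 15.4 to 22.8 FPKM with the other insecticides, against 16.0 in control. Nelfcd, a subunit of the complex that holds RNA polymerase II paused, had 7.54 FPKM of longer form with carbaryl and none listed elsewhere. The shorter Nelfcd form had 0.567 FPKM with carbaryl and 11.8 to 33.6 FPKM with the other insecticides, against 31.2 in control. In both genes the leading form in the carbaryl library was the lesser form in the other 6. Kif3a, a kinesin motor of cilia and axons, had 87.6% longer form with chlorpyrifos, 100% with DDT, 6.58% with rotenone, 100% with carbaryl, 3.55% with deltamethrin and 1.21% with imidacloprid, against 5.35% in control. Lmf2, a lipase maturation factor, had 94.7% with carbaryl and 4.15% to 88.6% with the others, and its longer form was not listed in control.

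With deltamethrin they were in Eci1, Picalm, Zfp46 and Zdhhc17. Eci1, a mitochondrial enzyme of fatty acid oxidation, had 5.95% longer form with deltamethrin and 100% in every other library, control included. The extra Eci1 bases do not end with AG, and its leading forms do not both match an exon of the annotation. The same lack of a match holds for the Ewsr1 donor, Taf15, Tmem183a, Fbl and Ncapg2 groups named for other insecticides. Picalm, a clathrin assembly protein, had 41.9% with chlorpyrifos, 16.1% with DDT, 33.5% with rotenone, 74.95% with carbaryl, 76.2% with deltamethrin and 19.1% with imidacloprid, against 3.16% in control. Here control was the lowest library and carbaryl and deltamethrin were the highest. Zfp46, a zinc finger protein, had 21.3% with deltamethrin and 65.8% to 87.1% with the others, against 94.3% in control. Zdhhc17, a palmitoyltransferase that binds huntingtin, had 28.2% with deltamethrin and 30.6% to 99.5% with the others, against 99.9% in control.

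With imidacloprid they were in Miat, Usp21, Fbl and Ncapg2. Ncapg2, a subunit of condensin II, had 3.61% longer form with imidacloprid and 100% in every other library. Its shorter form had 11.5 FPKM with imidacloprid, and its longer form 10.1 to 11.6 FPKM with the other insecticides, against 12.4 in control, so the 2 forms took each other's place at a like level. Fbl, the fibrillarin methyltransferase of ribosomal RNA, had 87.8%, 100%, 100%, 38.9%, 98.3% and 3.57% with chlorpyrifos, DDT, rotenone, carbaryl, deltamethrin and imidacloprid, against 100% in control, in a group of 4 forms. Usp21, a deubiquitinase, had 66.7% with DDT, 51.7% with deltamethrin and 97.2% with imidacloprid, and no longer form listed with the other 3 insecticides or in control. Miat, a long noncoding RNA, had no longer form listed with imidacloprid, 70.5% with rotenone, 66.9% with deltamethrin and at most 1.09% with the other 3, against 99.4% in control.

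**Figure D4:**
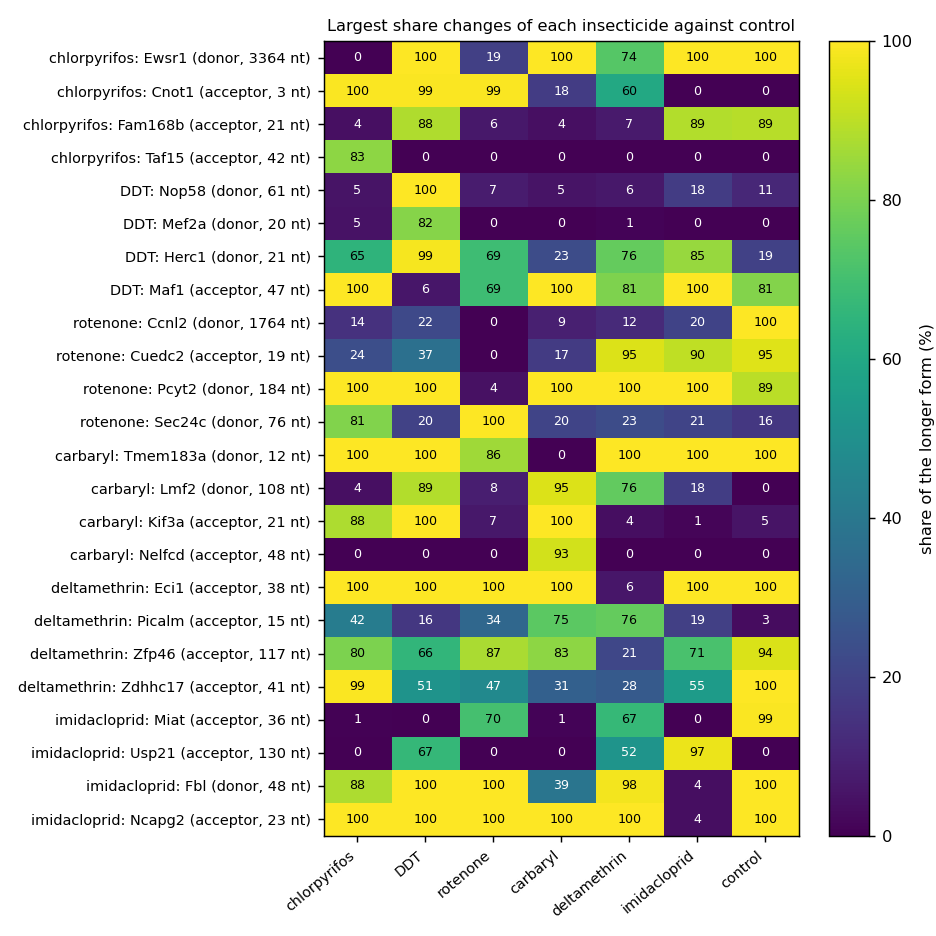
Share of the longer form in percent (colour and number in each cell) in the 6 insecticide libraries and control (columns), for the 4 groups named for each insecticide (rows, with the insecticide, gene, kind of end and distance in nt). Several rows, such as Fam168b, Kif3a and Miat, split the insecticide libraries as well, and Ncapg2, Eci1, Nelfcd and Taf15 each stand out in 1 library.

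The 8 largest cases in which control lay at least 20 points outside all 6 insecticides were chosen after their values were seen. Gtf3c5, a subunit of the polymerase III factor TFIIIC, had 6.70, 5.89, 6.03, 6.33, 6.47 and 6.72 FPKM of the longer form with chlorpyrifos, DDT, rotenone, carbaryl, deltamethrin and imidacloprid, and the form was not listed in control. The shorter form had 6.10 to 7.82 FPKM with insecticide, against 16.4 in control, so the longer form's share was 44.3% to 49.7% with insecticide. The 6 insecticide libraries lay close together for Gtf3c5. B4galt3, a galactosyltransferase of the Golgi, had 99.3% to 100% longer form with insecticide, against 28.5% in control. Pus10, a pseudouridine synthase, had 35.9% to 55.9%, against 99.0% in control. Aen, a nuclease known as a p53 target, had 82.0% to 100%, against 16.95% in control, with a longer form at 13.2 to 30.8 FPKM, against 0.999 in control.

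The other 4 were Ccnl2, Ipo4, Cnot1 and Psme1. The Ccnl2 group is intron-spanning. Its longer form had 14.3%, 22.2%, 0.374%, 8.65%, 12% and 20.1% with chlorpyrifos, DDT, rotenone, carbaryl, deltamethrin and imidacloprid, against 100% in control. In an intron-spanning group of Ipo4, an importin, the longer form was not listed with any insecticide, against 15.3 FPKM in control. A donor group of Cnot1 had at most 28.1% longer form with insecticide, against 81.1% in control. Psme1, a subunit of the PA28 proteasome activator, had 98.4% to 100%, against 56.2% in control. With the median of the other 6 libraries in place of control, the change was taken for the insecticide furthest from control. It lay between -16.8 and 5.82 points for Gtf3c5, B4galt3, Pus10, Aen, Ccnl2, Ipo4 and Psme1, and was -22.8 points for the Cnot1 donor group. Because these groups were chosen with control outside all 6 insecticides, a smaller change was bound to follow. As each insecticide library has groups of the same kind in like number, these values describe the control library as much as the absence of insecticide, and the 2 cannot be told apart with 1 library.

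**Figure D5:**
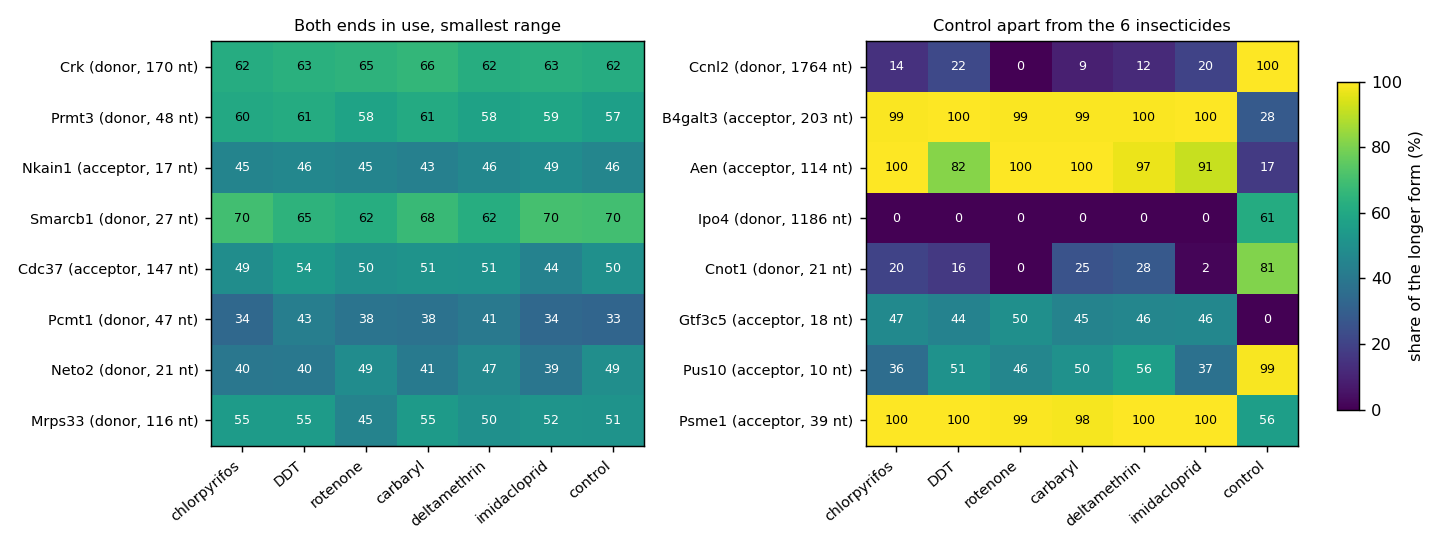
Share of the longer form in percent (colour and number in each cell) in the 6 insecticide libraries and control (columns), for the 8 steadiest evenly used groups on the left and the 8 largest cases with control apart on the right (rows, with kind of end and distance in nt). On the left each row stays within 10.1 points, and on the right the control column differs from the 6 others, as in Gtf3c5 with 44.3% to 49.7% against no listed form.

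Genes known for alternative exon ends gave a further view. In a list of 48 such genes, 21 had a group here, with 38 groups, of which 17 (44.7%) passed 20 points in some pair, beside 31.2% of all groups. Against control the list had 8 groups past 20 points with chlorpyrifos, 4 with DDT, 8 with rotenone, 7 with carbaryl, 6 with deltamethrin and 5 with imidacloprid of 38, beside 10.8% to 11.1% of all groups. Stat3 has an alpha form and a beta form that lacks the carboxy-terminal transactivation domain, made by an acceptor 50 bases further in. The longer, alpha, form had 99.9% with chlorpyrifos, 82.1% with DDT, 99.9% with rotenone, 100% with carbaryl, 99.4% with deltamethrin and 98.7% with imidacloprid, against 99.9% in control. The beta exon had 9.09 FPKM with DDT, against 0.0275 in control and at most 0.390 with any other insecticide, and DDT was the only library below 98%.

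Ptprz1, a receptor phosphatase of radial glia and glial precursors, has a short form that lacks a large part of its extracellular region. Its longer exon, with 2547 bases more, had 57.3% with chlorpyrifos, 50.02% with DDT, 70.7% with rotenone, 67.8% with carbaryl, 51.8% with deltamethrin and 65.6% with imidacloprid, against 55.0% in control. Control thus lay inside the insecticide range, and both forms had 32.2 FPKM or more in every library. Kif1b, a kinesin motor, had 12.8% longer form with chlorpyrifos, none listed with DDT, 2.23% with rotenone, 58.6% with carbaryl, 64.5% with deltamethrin and 44.7% with imidacloprid, against 51.8% in control. The 3 low Kif1b libraries were chlorpyrifos, DDT and rotenone. Tardbp, which encodes the RNA-binding protein TDP-43, had 42.8% to 61.5% of its longer form with insecticide, against 88.2% in control, in a group of 4 forms. Zfp207, a zinc finger protein of the kinetochore, had 77.5% to 100%, against 74.4% in control. Against the median of the other 6 libraries in place of control, the change was -12.3 points for Tardbp with imidacloprid, in place of -45.5. It was 7.31 points for Zfp207 with chlorpyrifos, in place of 25.6, so neither passed 20 points. In both genes control lay outside all 6 insecticides, so a smaller change was bound to follow.

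A further 6 groups of that list had 1 form almost alone. The longer form stood at 98.9% to 99.8% in Fgfr1, a fibroblast growth factor receptor, against 99.3% in control, and at 99.8% to 100% in Ctnnd1, the catenin p120, against 99.6% in control. It stood at most at 0.437% in Sf1, which binds the branch point, against 0.0841% in control, and at most at 3.52% in Ing4, a chromatin reader, against 0.433% in control. In the splicing regulators Srsf5 and Tra2b it stood at most at 0.00808% and 3.26% with insecticide, against 0.00604% and 0.68% in control. Its values in Tra2a were 8.46% to 13.1% with 5 insecticides and none listed with chlorpyrifos, against 12.2% in control, and in Clk4, a kinase of SR proteins, 19.2%, 35.9% and 11.9% with carbaryl, deltamethrin and imidacloprid and none listed elsewhere.

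Splicing regulators, which often adjust their own splicing, had groups in 54 of 103 listed genes, with 95 groups, of which 36 (37.9%) passed 20 points in some pair, beside 31.2% of all groups. The list had 18 groups past 20 points against control with chlorpyrifos, 11 with DDT, 16 with rotenone, 12 with carbaryl, 10 with deltamethrin and 14 with imidacloprid of 95, beside 10.8% to 11.1% of all groups. Hnrnpc makes the C1 and C2 forms of a heterogeneous nuclear ribonucleoprotein from donors 39 bases apart. The longer Hnrnpc form had 13.0% with chlorpyrifos, 7.81% with DDT, 9.63% with rotenone, 9.88% with carbaryl, 10.3% with deltamethrin and 9.51% with imidacloprid, against 7.33% in control. Its level was 10.8 to 13.2 FPKM with insecticide, against 11.9 in control, while the shorter form had 81.3 to 148 FPKM, against 150 in control. Srsf7, an SR protein, had 35.6% to 52.9% of the longer form at donors 9 bases apart, against 41.4% in control, and both ends were in use in every library. Pcbp2, which binds poly(C), had 8.79% to 26.6%, against 17.6% in control, and Hnrnph1 8.32% to 15.4%, against 11.3% in control. In Srsf7, Pcbp2 and Hnrnph1 the insecticide values lay on both sides of control.

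Other regulators varied more. Hnrnpk had 65.6%, 27.9%, 34.0%, 46.6%, 55.8% and 71.1% longer form with chlorpyrifos, DDT, rotenone, carbaryl, deltamethrin and imidacloprid, against 31.7% in control, in a group of 3 forms. Ddx39b, an RNA helicase of splicing and export, had 42.3% to 100%, against 71.5% in control. Hnrnpm had 32.0% with DDT and 6.97% to 10.99% with the other insecticides, against 12.2% in control. In an intron-spanning group of Srsf3 the longer form had 10.8% with chlorpyrifos and 8.01% with DDT and was not listed with the other 4, against 9.36% in control. In such a group of Puf60 the longer form had 7.24% with deltamethrin alone. The remaining named groups had 1 form at 98.8% or more in every library, the longer one in Snrnp70 and Srsf1 and the shorter one in Sfpq.

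Groups in genes of the cell types were few. Of 29 neuron genes 11 had a group, and 10 of their 20 groups passed 20 points in some pair, beside 31.2% of all groups. Those 10 groups lay in only 4 of the genes. Of 31 glia and progenitor genes 7 had a group, and 3 of 7 passed. Of 29 ATF4 stress genes 4 had a group and 0 of 4 passed, with a median largest change of 2.56 points, and of 24 cholesterol synthesis genes 8 had a group and 2 of 10 passed, with a median of 2.87 points, beside 10.8 points over all groups. With so few groups these counts only describe the genes listed.

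The labelled cell type was checked on summed transcript starts. The progenitor genes Nes (165 to 206 FPKM), Vim (995 to 1233), Sox2 (16.4 to 28.3) and Pax6 (8.77 to 11.7) were present in every library, as were the neuron genes Map2 (132 to 157), Dcx (22.8 to 27.2), Stmn2 (20.02 to 51.5), Snap25 (6.83 to 8.93) and Rbfox3 (1.54 to 3.78). The astrocyte and radial glia genes Slc1a3 (54.3 to 96.2), Aldh1l1 (27.8 to 43.6) and Fabp7 (3.16 to 8.65) were present, and Gfap, Aqp4 and S100b were at most 0.87. Col1a1, Col1a2, Acta2, Postn and Lum were at most 6.98, Mbp at most 2.09, and Pou5f1 and Nanog at most 0.15. Olig2 was listed in the imidacloprid and DDT libraries, at 140 and 53.4, and in no other. Tubb3, Sox10, Pdgfra, Dppa5a, Aif1, Cx3cr1 and Tmem119 had no start event here. The tissue label reads brain, while the cells derive from a stem cell line, and the cultures hold several cell types. Whether a share differs because cells changed or because their mixture did cannot be told apart in bulk RNA.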

How the data were processed

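Total RNA of 7 cultures was sequenced, 1 library per group, grouped by the sample titles. The submitters' processing notes name HISAT2 2.0.1, cutadapt 1.9.1 and bcl2fastq 2.17.1.14 and the build GRCm38. The tool behind the events is not given in the sources. The authors' deposited values are FPKM per event, per the file headers, and only events above 0 are listed. Read depth is not given by FPKM, so no counting interval was set.

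Events of types AE and XAE were reduced to distinct exons, grouped by gene and shared boundary, and each form's share was its FPKM over the group's total, with an unlisted form as 0. Groups needed 5 FPKM in every library. A change is the sum of absolute share differences over the forms, divided by 2, and counts use 20 percentage points. The longer form is the longer of the 2 with the highest mean share, a choice made after values were seen. Genes were named by the files, or in 265 groups by matching GENCODE M21 exon boundaries. Sequences came from GENCODE M21 transcripts.

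Genes were named by rule among 2595 groups with a mean of 10 FPKM, without chromosome 18, clone names or predicted models: the 12 widest ranges, the 4 largest changes per insecticide outside the 6 other libraries, the 8 steadiest with a mean of 30% to 70%, the 8 highest 3-base acceptors, and up to 15 genes of 2 lists, which came to 74 groups with the 8 cases of control apart. Kif3a was named for carbaryl although DDT had an equal share. Members and lists were chosen with earlier results of these data known. Python 3.11.15, pandas 2.3.3, numpy 2.4.6 and matplotlib 3.10.9 were used, and the grouping and share steps were tested on simulated data. The values of 1 named group and 1 marker gene are not reported here.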

Additional observations from a re-analysis of the deposited data

How the results depend on the processing

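The counts of groups past 20 points against control were 371 to 383. They stayed within 1.5 times with 0.5 FPKM added to each form (324 to 337), with AE events only (332 to 351), with genes from the annotation (366 to 380), with groups of 2 forms (271 to 285) and, chosen after seeing the data, without intron-spanning forms (286 to 308). In the order chlorpyrifos, DDT, rotenone, carbaryl, deltamethrin and imidacloprid, the counts were 803, 791, 832, 813, 810 and 795 at 10 points and 202, 208, 206, 202, 188 and 193 at 30 points. They were 1063, 1043, 1054, 1027, 1090 and 1048 with no minimum total, 749, 741, 728, 720, 757 and 735 with 1 FPKM, and 92, 84, 93, 95, 81 and 95 with 20 FPKM, where fewer groups were tested (7.95% to 9.32%). With forms listed in all 7 libraries they were 194, 205, 178, 188, 179 and 197 (13.9% to 16.0%). With 1 group per gene, chosen after seeing the data, they were 234, 227, 241, 242, 234 and 237 (9.83% to 10.5%). Against the median of the 6 other libraries they were 223, 236, 247 and 248 for chlorpyrifos, DDT, carbaryl and imidacloprid, and at most 260 for the others; the cause was not tested. Of 74 named groups, all 74 kept their side of 20 points with the added 0.5 FPKM and so did all 63 that could be formed with AE events only; against the median of the other libraries 64 did, Tardbp, Zfp207, Gtf3c5, Ccnl2, Ipo4, Pus10, Psme1, Aen and B4galt3 lost the call, and Hnrnpm gained it. No named group past 20 points changed sign; with the added 0.5 FPKM 2 smaller changes did, Tra2b with carbaryl (-0.11 in place of 2.58 points) and Srsf5 with deltamethrin (0.0545 in place of -0.006 points). In the groups that lost the call against the median, control lay outside all 6 insecticides, so a smaller change was bound to follow. No paired analysis was possible because each group has 1 library, and none could be left out. FPKM give no depth, so low totals limit every share.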
